A study of Mus musculus with 12 samples.

Results

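F-box proteins are the interchangeable subunits of SCF ubiquitin ligases. Typically each binds the adaptor SKP1 through its F-box, and through SKP1 the scaffold CUL1. It brings a chosen substrate to the ligase for ubiquitination, which often leads to destruction of the substrate by the proteasome. Some work with other partners, such as FBXW8 with CUL7 and FBXO45 with MYCBP2. The Fbxw subunits hold substrates with WD40 repeats and the Fbxl subunits with leucine-rich repeats, while the Fbxo subunits carry other domains or none that is recognised. Members of the family are known for control of iron regulatory protein and of lipogenic and cell cycle transcription factors, and FBXL4 and FBXO7 are tied to mitophagy, the removal of mitochondria by autophagy. The genes described here are those of the deposited count tables whose symbols begin with Fbxo, Fbxl or Fbxw followed by a number. There were 78 of them among 24787 genes, made up of 37 Fbxo, 19 Fbxl and 22 Fbxw symbols. All but 1 are protein-coding; Fbxl12os is an antisense RNA gene that meets the naming rule without encoding an F-box protein.

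Liver RNA was sequenced from C57Bl/6 mice in 3 groups of 4 libraries. HFD+MEC1 mice ate a high-fat diet for 2 months and then received MEC1, a compound known here by its code name only, at 0.5 mg/kg by daily intraperitoneal injection. HFD mice ate the same diet, came from the same randomisation and received vehicle injections. ND mice ate a normal diet, and the sources used here do not say whether they were injected. Sex, age and the length of dosing are not given, nor is it stated that each library is a different mouse, so the p-values measure only the spread between these libraries. Totals ran from 39916405 to 51340317 counts per library, and the F-box symbols took 0.0893 to 0.112% of them. The 8 hepatocyte markers summed to 71914 to 96624 CPM (each gene's count as a share of its library's TMM-scaled total) in HFD+MEC1 libraries, 88625 to 101255 CPM in HFD libraries and 91366 to 105872 CPM in ND libraries, and all 8 were detected in each group. Macrophage markers summed to 371 to 497 CPM in HFD+MEC1, 314 to 493 CPM in HFD and 258 to 379 CPM in ND. Alb supplied most of the hepatocyte sum, at 50695 to 70762 CPM in HFD+MEC1 libraries, so the sum mostly follows that gene. Of the 8 hepatocyte markers, 4 had positive and 4 negative log2 fold changes in HFD+MEC1 against HFD. In HFD+MEC1 against ND, 2 were positive and 6 negative. In bulk tissue, fewer cells of a type and less RNA per cell cannot be told apart.

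Of the 78 symbols, 64 had at least 1 count and 54 passed the filter on low counts: 29 of 37 Fbxo, 17 of 19 Fbxl and 8 of 22 Fbxw. The 14 symbols with no count in any library were Fbxo39, Fbxo41 and 12 of the Fbxw genes of chromosome 9. Those lie in a run of 13 Fbxw genes between positions 109139447 and 109790670 of chromosome 9 (GENCODE M21 coordinates, GRCm38), and the remaining gene of the run, Fbxw15, had 11 counts over all 12 libraries. The members nearest the filter were Fbxl16 and Fbxo2 on its inner side, with 3 to 42 and 2 to 42 counts per library, and Fbxo24 and Fbxl12os on its outer side, with 0 to 19 and 0 to 13 counts. Fbxo48, known for control of AMP-activated kinase, had 0 to 12 counts and was not tested, and Fbxo43 had 10 counts in HFD+MEC1 replicate 1 and 0 in the other libraries.

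Levels between genes are compared on the deposited RPKM scale, which divides by gene length. The 54 tested members had a median of their mean RPKM of 2.18, against 2.76 for all 14172 genes tested; 38 of the 54 reached an RPKM of 1, 13 reached 5 and 6 reached 10. The most abundant were Fbxo22 at 18.02 RPKM, which encodes a subunit that targets histone demethylases, Fbxo3 at 16.6 RPKM, whose product is known for degrading the F-box protein FBXL2, and Fbxo9 at 16.5 RPKM, known in human cells as a regulator of mTOR signalling. Their ranges over the 12 libraries overlapped, from 16.6 to 20.4, 12.2 to 19.6 and 13.9 to 19.8 RPKM, so the 3 are not ordered. Fbxo6, a receptor for N-linked glycans of misfolded proteins, averaged 13.1 RPKM, Fbxo21 11.8 RPKM and Fbxo8 11.5 RPKM. The ranges of Fbxo6, Fbxo21 and Fbxo8 also overlapped, so these genes are not ordered either. The Fbxo21 mean takes in the HFD+MEC1 libraries, where the gene averaged 15.98 RPKM and on which it was picked, as described below. Its group mean lay above that of Fbxo8 only there. In HFD libraries Fbxo21 averaged 9.20 RPKM and Fbxo8 11.9 RPKM, and in ND libraries 10.1 and 11.5 RPKM. The related genes Fbxo6, Fbxo44 and Fbxo2 sit side by side on chromosome 4 between positions 148145716 and 148166424, yet averaged 13.1, 0.676 and 0.203 RPKM. Fbxo22 shares 15.4% of its exonic sequence with a gene on the opposite strand, and Fbxw8 shares 33.4%; strand use in counting is not given in the sources used here, so such reads may not be separated.

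**Figure D1:**
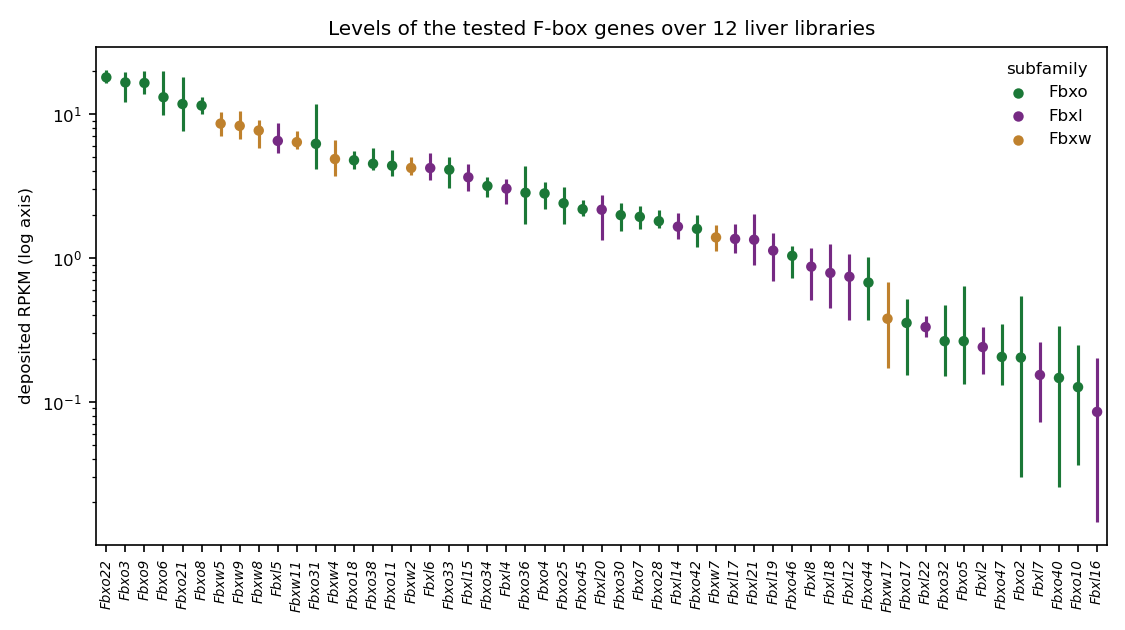
Deposited RPKM (log axis) of 53 of the 54 tested F-box genes over the 12 libraries; points are means, lines run from the lowest to the highest library, and colours mark the Fbxo, Fbxl and Fbxw subfamilies. The means span from 18.02 RPKM for Fbxo22 to 0.0853 RPKM for Fbxl16, and the lines lengthen toward the low end.

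Fbxo21 drew attention to the family because it was higher in HFD+MEC1 than in HFD, and its values in HFD+MEC1 libraries are therefore given as a description, with no test. The gene lies on chromosome 5 from 117976730 to 118010201 on the plus strand, has no exonic overlap with another annotated gene, and encodes a substrate receptor known in human cells for targeting EID1, an inhibitor of differentiation. It stood at 82.2, 77.3, 83.5 and 68.9 CPM in HFD+MEC1 libraries, against 42.6, 38.4, 47.9 and 49.1 CPM in HFD libraries and 44.2, 44.9, 67.1 and 52.2 CPM in ND libraries. Every HFD+MEC1 library lay above all 8 others, the nearest being ND replicate 3. The log2 fold change was 0.81 ± 0.12 (SE) against HFD, a ratio of 1.75, and 0.58 ± 0.12 against ND, a ratio of 1.497. The deposited RPKM gave 15.98 ± 2.00 in HFD+MEC1, 9.20 ± 1.26 in HFD and 10.1 ± 2.43 in ND (SD, n = 4 each), and on that scale the lowest HFD+MEC1 library and the highest ND library both stood at 13.5 RPKM.

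What the selection did not use for Fbxo21 is the comparison of HFD with ND, although the HFD libraries served in both. There HFD libraries averaged 44.5 ± 4.99 CPM and ND libraries 52.1 ± 10.6 CPM (SD, n = 4 each). The groups overlapped, and the log2 fold change of -0.23 ± 0.12 did not pass (edgeR adjusted p = 0.321; 0.211 to 0.708 over the alternatives). Without ND replicate 3, the highest of the ND libraries, the value was -0.09. Eid1, the gene of its best known substrate, did not pass in any comparison.

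The promoter of Fbxo21 is shown beside that of Fbxo31, the tested member with the next largest difference between HFD+MEC1 and HFD among those at 5 RPKM or more. Both are windows of 200 bases with 50 bases between them and the RefSeq start (GRCm38.p6). They read 5′ to 3′ on the gene's strand, with matches to the GC box GGGCGG in capitals. The GENCODE start of Fbxo21 given above, 117976730, differs from its RefSeq start and lies closer to the window. Fbxo21 is chr5:117976520-117976719 on the plus strand and Fbxo31 is chr8:121578857-121579056 on the minus strand.
Fbxo21: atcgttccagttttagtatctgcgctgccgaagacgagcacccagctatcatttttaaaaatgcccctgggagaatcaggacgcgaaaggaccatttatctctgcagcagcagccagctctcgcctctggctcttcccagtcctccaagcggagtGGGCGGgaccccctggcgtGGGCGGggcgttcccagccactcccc
Fbxo31: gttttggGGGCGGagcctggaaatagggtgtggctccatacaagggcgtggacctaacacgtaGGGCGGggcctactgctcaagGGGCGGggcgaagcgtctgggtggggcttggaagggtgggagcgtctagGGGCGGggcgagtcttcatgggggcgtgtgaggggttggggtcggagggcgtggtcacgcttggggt
The Fbxo21 window held 2 GC boxes and the Fbxo31 window 4, all on the gene's own strand, and their GC content was 59.5% and 67.0%, against a median of 51.5% over all windows. GC boxes were found on either strand in 24.6% of 32851 RefSeq promoter windows of that length. Neither window held the letters CCAAT (28.4% of all windows), TATAAA (9.14%), CACGTG (4.34%), the forkhead letters TGTTTAC (2.58%) or the cAMP response letters TGACGTCA (0.828%) on either strand; CACGTG and TGACGTCA read the same on both. A match in these letters is a description and not a binding site. The 50 bases nearest the RefSeq start, where a TATA box usually lies, are outside the windows, so nothing is read from the absence of TATAAA.

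HFD set against ND carries the diet and, since it is not given whether ND mice were injected, possibly the vehicle injections, which then cannot be told apart. The log2 fold changes of most F-box genes lay near 0, as did those of most genes tested. Of the 54 tested members 0 rose and 0 fell in edgeR at an adjusted p under 0.05, where 6.3% of all 14172 genes tested were called (3.35% higher and 2.95% lower). DESeq2, limma-voom and limma on RPKM also called 0, and 4 members had an unadjusted p under 0.05 in edgeR, against 20.7% of all genes. The log2 fold changes were split evenly, 27 positive and 27 negative, with a median of -0.00113 against -0.00345 for all genes, and 38 of 54 lay within 0.25 of 0. Their median absolute size was 0.18, against 0.18 for all genes. It was 0.11 for the 38 members at 1 RPKM or more, and no value over all genes at that level was computed. For 30 of 54 members the interval (the log2 fold change with 1.96 SE to either side) lay inside 0.5 on the log2 scale, which is a ratio of 1.41, and for the others it reached beyond. Scaling by library totals shifted the median over all tested genes to 0.12, and Fbxl5 and Fbxl20 then passed.

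Fbxl5, whose product senses iron and degrades iron regulatory protein, had the lowest p of the family on this contrast. It stood at 31.8, 29.5, 33.4 and 28.7 CPM in HFD libraries and at 25.7, 26.1, 22.6 and 26.1 CPM in ND libraries. The groups did not overlap, yet the log2 fold change of 0.30 ± 0.09 missed the threshold (edgeR adjusted p = 0.074), and it passed without HFD+MEC1 replicate 1 (adjusted p = 0.0462), a library of neither group. HFD+MEC1 libraries stood at 30.7, 25.2, 25.6 and 23.8 CPM, most of them among the ND values. Ireb2, which encodes the iron regulatory protein it degrades, did not pass in any comparison. Groups also did not overlap for Fbxw7 (HFD higher) and Fbxl6 (HFD lower), which makes 3 of 54 members or 5.56%, against 14.3% of all genes tested (7.46% higher and 6.81% lower).

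Fbxl20, known for ubiquitination of the lipid kinase VPS34, averaged 25.2 ± 3.34 CPM in HFD and 19.4 ± 4.25 CPM in ND (SD, n = 4 each; log2 fold change 0.38 ± 0.14, edgeR adjusted p = 0.125). The highest ND library, replicate 2 at 25.4 CPM, overlapped the HFD range of 21.4 to 28.4 CPM, and without it the gene passed (log2 fold change 0.53, adjusted p = 0.0239). Fbxo3 stood at 121 to 139 CPM in HFD and 129 to 169 CPM in ND, with a log2 fold change of -0.23 ± 0.11 (adjusted p = 0.232). Fold changes beyond 0.5 in size came only from rare genes among the tested members. Fbxl16 had 3 to 18 counts in HFD libraries and 12 to 42 in ND libraries (log2 fold change -1.18 ± 0.60), and Fbxo40, which encodes a muscle subunit known for degrading IRS1, had 36 to 100 counts in HFD libraries and 24 to 48 in ND libraries (0.87 ± 0.45). Skeletal muscle markers were close to 0, with 6 genes summing to 0.475 to 0.620 CPM in HFD libraries and 0.165 to 0.822 CPM in ND libraries and 3 of the 6 at 0 in each group, Acta1 among them.

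By role, the mitophagy-linked genes Fbxl4, whose product restrains the mitophagy receptors BNIP3 and NIX, and Fbxo7, whose product binds parkin, had log2 fold changes of 0.06 ± 0.11 and 0.01 ± 0.11, with intervals of -0.15 to 0.27 and -0.19 to 0.22. Fbxw7, which targets MYC, cyclin E and SREBP proteins, averaged 8.49 ± 0.195 CPM in HFD livers and 7.83 ± 0.485 CPM in ND livers (log2 fold change 0.12 ± 0.11), and Fbxw11, a β-TrCP known for degrading β-catenin and IκB, averaged 36.0 ± 2.11 CPM in HFD livers and 34.4 ± 0.454 CPM in ND livers (0.07 ± 0.07). Fbxw8, which works with CUL7, had a log2 fold change of 0.02 ± 0.10, and Fbxo45, which works with MYCBP2, one of -0.05 ± 0.11. Fbxo5, the inhibitor of the anaphase-promoting complex known as EMI1, was rare at 0.593 ± 0.388 CPM in HFD and 0.465 ± 0.150 CPM in ND, and the interval of -0.62 to 1.32 is too wide to place its difference. Cycling-cell markers summed to 7.96 to 10.4 CPM in HFD and 4.45 to 9.78 CPM in ND.

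**Figure D2:**
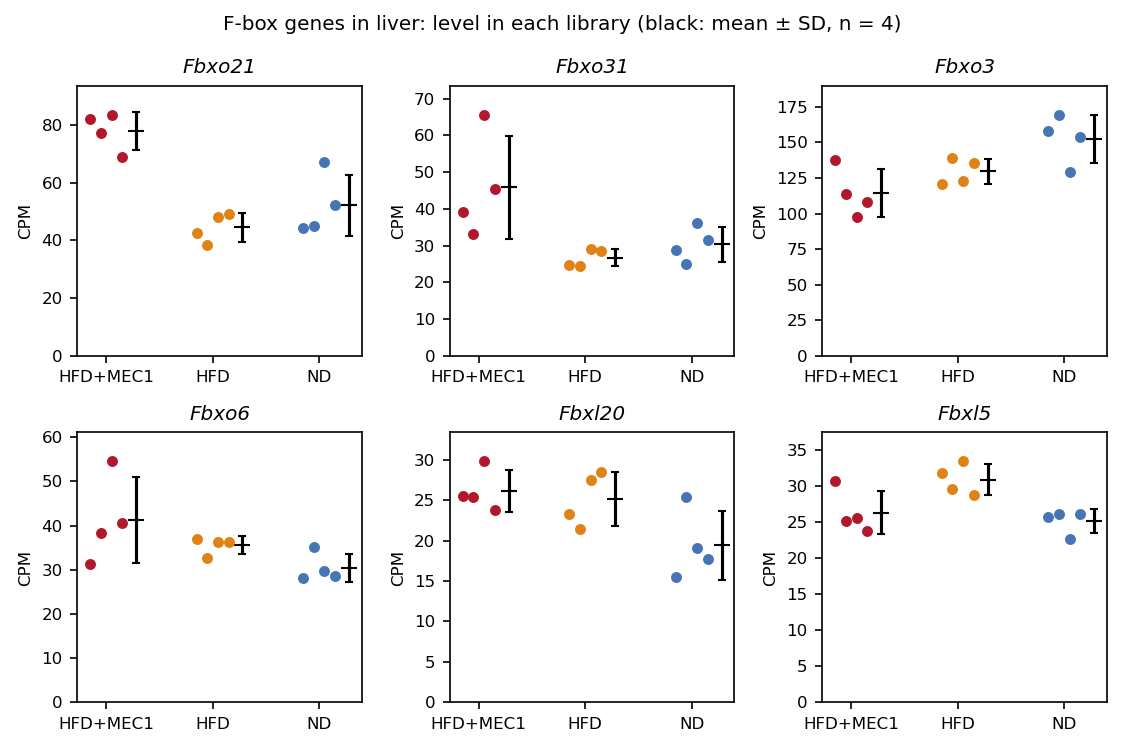
CPM of 6 F-box genes in each library, with HFD+MEC1, HFD and ND from left to right; points are libraries and black marks are mean ± SD of 4. Fbxo21 in HFD+MEC1 (68.9 to 83.5 CPM) lies above every HFD and ND library, Fbxl5 in HFD (28.7 to 33.4 CPM) lies above every ND library, Fbxo31 in HFD+MEC1 (33.2 to 65.6 CPM) lies above every HFD library, and Fbxo3, Fbxo6 and Fbxl20 overlap between each pair of groups.

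HFD+MEC1 set against ND carries the diet, MEC1 and possibly the injections together, and it shares the ND libraries with the comparison above. Of 54 tested members 1 rose, Fbxo21, and 1 fell, Fbxo3, where 4.54% of all genes tested were called (2.15% higher and 2.4% lower). Fbxo21 was picked for being high in the same HFD+MEC1 libraries and is not counted as a result here, which leaves 1 of 53 others. The median log2 fold change was 0.01, against 0.00 for all genes, and 36 of 54 members lay within 0.25 of 0. Their median absolute size was 0.16, against 0.18 for all genes. Fbxo21 is likewise left out of the count of groups that did not overlap. Of the 53 others, 1 was higher without overlap (Fbxo25) and 2 were lower (Fbxo17 and Fbxo8). Together they make 5.66%, against 11% of all genes (5.13% higher and 5.84% lower).

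Fbxo3 stood at 137, 114, 97.7 and 108 CPM in HFD+MEC1 libraries, against 158, 169, 129 and 154 CPM in ND libraries, and HFD libraries stood at 121, 139, 123 and 136 CPM. HFD+MEC1 replicate 1 overlapped ND replicate 3, and the other libraries of the 2 groups did not. The gene fell by 0.42 ± 0.11 on the log2 scale against ND (edgeR adjusted p = 0.0396). That call held under 10 of 21 alternatives (log2 fold change -0.52 to -0.32, adjusted p = 0.0111 to 0.150). It was lost with library totals, with RPKM at either pseudocount, with only the 2 groups fitted, and without ND replicate 1, 2 or 4, HFD replicate 1 or HFD+MEC1 replicate 2, 3 or 4. Fbxl2, the gene of its known target, averaged 0.818 ± 0.239 CPM in HFD+MEC1 livers and 1.13 ± 0.200 CPM in ND livers (SD, n = 4 each), and did not pass.

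Among members that missed the threshold against ND, Fbxo6 averaged 41.2 ± 9.72 CPM in HFD+MEC1 and 30.5 ± 3.18 CPM in ND (SD, n = 4 each; log2 fold change 0.44 ± 0.13, edgeR adjusted p = 0.072). HFD+MEC1 replicate 3 carried the highest value at 54.5 CPM and replicate 1 the lowest at 31.3 CPM, inside the ND range of 28.2 to 35.1 CPM. Replicate 3 was also the highest of its group for Fbxo21 and Fbxo31, and the lowest for Fbxo3, Skp1a and Srebf1. The lowest hepatocyte marker sum, 71914 CPM, was likewise in that library. Such values come from the same library and are not independent observations. Fbxo6 passed without HFD+MEC1 replicate 1, with library totals, with DESeq2 and with RPKM. Fbxo31, known for degrading cyclin D1 after DNA damage, stood at 39.3, 33.2, 65.6 and 45.3 CPM in HFD+MEC1 libraries and at 28.7, 24.9, 36.3 and 31.5 CPM in ND libraries (0.60 ± 0.18, adjusted p = 0.0726). The groups overlapped at HFD+MEC1 replicate 2 and ND replicate 3. It passed with DESeq2 and without HFD+MEC1 replicate 2 (adjusted p = 0.0187 and 0.0212). For Fbxl20 the log2 fold change was 0.43 ± 0.14 (adjusted p = 0.0916), and it passed without ND replicate 2 (0.58, adjusted p = 0.0198). For Fbxo25 it was 0.45 ± 0.14 (adjusted p = 0.0823), with HFD+MEC1 libraries at 6.74 to 8.50 CPM and ND libraries at 4.95 to 6.22 CPM; DESeq2 and limma on RPKM called it. Of Fbxo17, a rare relative of Fbxo6, HFD+MEC1 libraries had 15 to 43 counts and ND libraries 45 to 65, with no overlap in CPM (-1.03 ± 0.34, adjusted p = 0.0956). It passed with DESeq2 and without HFD+MEC1 replicate 1 (adjusted p = 0.0357 and 0.0443). The neighbours of Fbxo6 on chromosome 4, Fbxo44 and Fbxo2, had log2 fold changes of -0.62 ± 0.24 and -0.88 ± 0.73, neither past the threshold. Fbxl4 and Fbxo7 had log2 fold changes of -0.17 ± 0.11 and -0.04 ± 0.11, and Fbxw7 one of 0.17 ± 0.11.

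**Figure D3:**
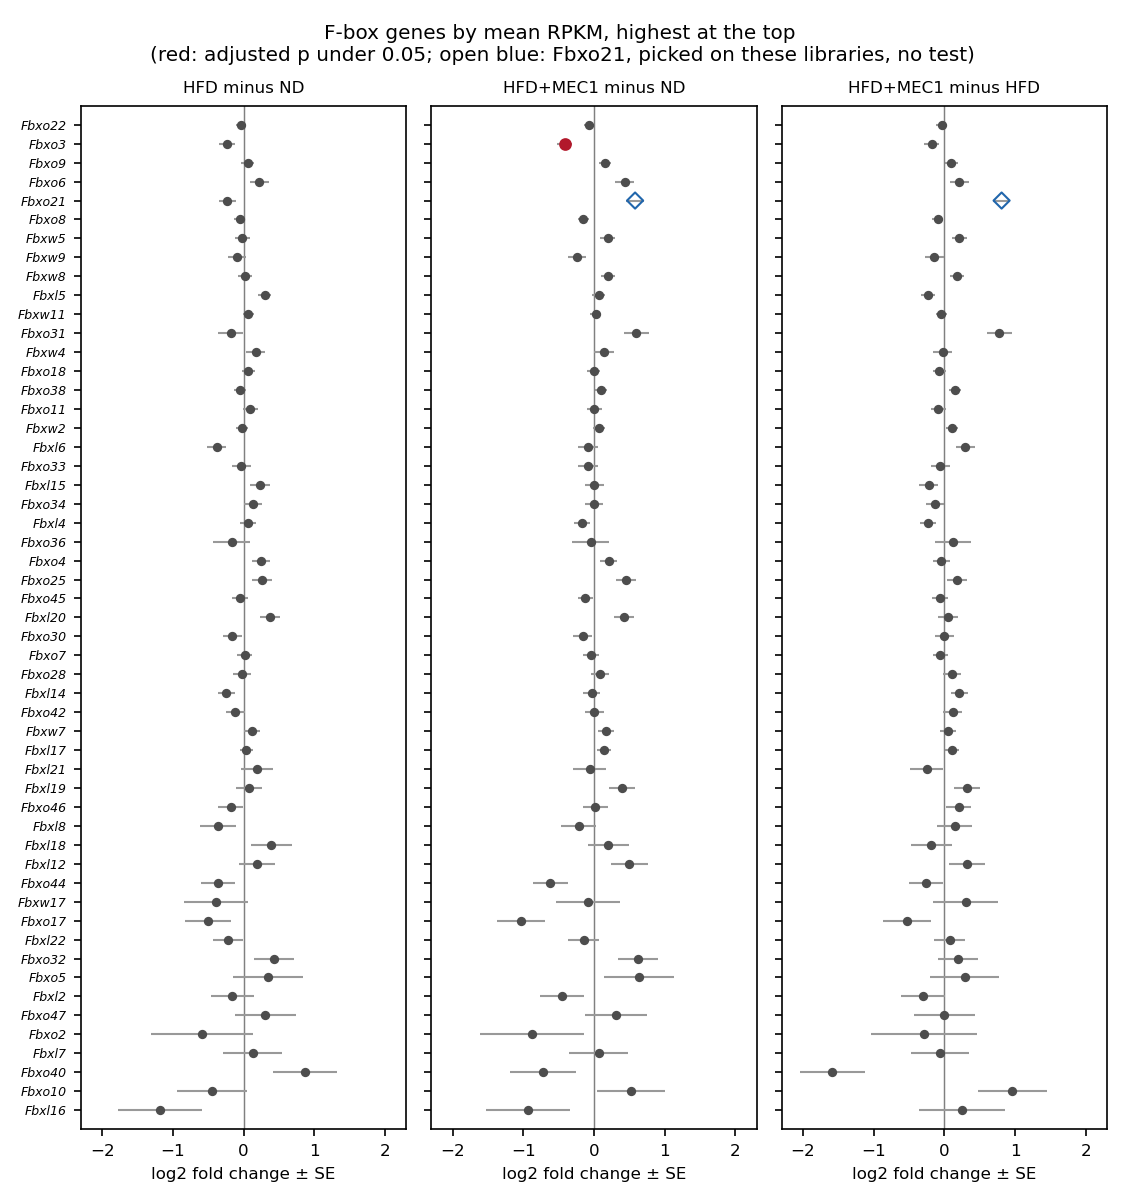
Log2 fold change with SE for 53 of the 54 tested F-box genes in 3 comparisons, ordered by mean RPKM from the highest at the top. Grey points did not pass, the red point (Fbxo3, HFD+MEC1 minus ND) had an adjusted p under 0.05, and open blue diamonds mark Fbxo21 in the comparisons that hold the libraries it was picked on; in HFD minus ND no gene passed.

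HFD+MEC1 set against HFD compares MEC1 with vehicle on the high-fat diet. It is the comparison in which Fbxo21 was picked, and it shares its HFD+MEC1 and HFD libraries with the others, so the family is described there without tests. In edgeR 1 of 54 members was called, Fbxo21, and 0.0282% of all genes tested were called (0.00706% higher); nothing is read from that count, which was 0 with library totals, with RPKM and without any 1 of 8 libraries drawn from all 3 groups. The log2 fold changes were 27 positive and 27 negative with a median of 0.02, against 0.01 for all genes. Of the 54, 40 lay within 0.25 of 0, and the median absolute size was 0.16, against 0.16 for all genes. After Fbxo21, the member with the largest difference at an RPKM of 1 or more was Fbxo31, with a log2 fold change of 0.78 ± 0.18. It stood at 33.2 to 65.6 CPM in HFD+MEC1 and 24.6 to 29.0 CPM in HFD, with no overlap, and HFD+MEC1 replicate 3, at 65.6 CPM, lay farthest up. With Fbxo21 left out, groups did not overlap for 2 of 53 members, Fbxo31 and Fbxl6, both higher. They make 3.77%, against 7.11% of all genes (3.13% higher and 3.98% lower). Fbxl6 stood at 8.18 to 11.8 CPM in HFD+MEC1 and 7.48 to 8.16 CPM in HFD (0.30 ± 0.14). Fbxl5 and Fbxl4 stood at -0.23 ± 0.09 and -0.23 ± 0.11, Fbxo3 at -0.18 ± 0.11 and Fbxo6 at 0.21 ± 0.13. Fbxw8, the nearest family gene to Fbxo21 on chromosome 5 (118064965 to 118155464, minus strand), averaged 52.9 ± 5.92 CPM in HFD+MEC1 and 46.7 ± 2.33 CPM in HFD (SD, n = 4 each; 0.18 ± 0.10).

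The rare members with the widest differences were Fbxo40 and Fbxo10. Fbxo40 had 8 to 52 counts in HFD+MEC1 libraries and 36 to 100 in HFD libraries, with a log2 fold change of -1.59 ± 0.46. Skeletal muscle markers summed to 0.509 to 0.757 CPM in HFD+MEC1 libraries and 0.475 to 0.620 CPM in HFD libraries, with Ckm and Acta1 at 0 in both groups; their part in the Fbxo40 values was not tested. For Fbxo10, known for targeting BCL2, CPM averaged 1.01 ± 0.466 in HFD+MEC1 livers and 0.517 ± 0.0878 in HFD livers (0.96 ± 0.49). Fbxo32, the muscle atrophy subunit atrogin-1, averaged 2.73 ± 1.05 CPM in HFD+MEC1 livers and 2.39 ± 0.515 CPM in HFD livers (0.19 ± 0.28). Abundant members lay closer together: Fbxo22 had an interval of -0.18 to 0.11 and Fbxw11 one of -0.19 to 0.10. Summed over all 78 symbols the F-box genes reached 999.7 ± 28.1 CPM in HFD+MEC1, 950.4 ± 12.8 CPM in HFD and 964 ± 30.6 CPM in ND (SD, n = 4 each).

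The ligase that F-box proteins join was measured through its other genes. The gene lists here and below were chosen with earlier results of these data known, so the shares called in them are descriptions only. Neddylation adds NEDD8 to cullins to activate them. Of 24 tested genes of the SCF core and of neddylation, 1 rose on HFD against ND and 0 fell. That is 4.17%, where 6.3% of all genes tested were called (3.35% higher and 2.95% lower). The list had a median log2 fold change of 0.06, against -0.00345 for all genes. The gene that rose was Skp1a, which encodes the adaptor that F-box proteins typically bind (chromosome 11, 52231995 to 52246858). It stood at 216, 232, 246 and 201 CPM in HFD libraries and at 168, 178, 139 and 149 CPM in ND libraries, with no overlap (0.49 ± 0.11, edgeR adjusted p = 0.0143). The call held in 19 of 21 alternatives and was lost without ND replicate 4 or HFD replicate 3. HFD+MEC1 libraries stood at 198.8, 156, 145 and 174 CPM, and Skp1a against ND did not pass there. Against HFD its log2 fold change was -0.41 ± 0.11, which missed the threshold (edgeR adjusted p = 0.127), while DESeq2 called it. That comparison shares the HFD libraries in which Skp1a was found high. In HFD+MEC1 against ND 0 of the 24 genes passed with edgeR, DESeq2 or limma, and 2 had an unadjusted p under 0.05 in edgeR. Of all genes tested, 4.54% were called by edgeR in that comparison and 19.1% had an unadjusted p under 0.05. A list of 11 tested genes held those of the COP9 signalosome, which removes NEDD8 from cullins, and Senp8, the gene of a separate NEDD8 protease. Of these 11 genes, 0 passed in any of the 3 comparisons with edgeR. In HFD against ND, HFD+MEC1 against ND and HFD+MEC1 against HFD, 3, 1 and 0 had an unadjusted p under 0.05. Of all genes tested, 6.3%, 4.54% and 0.0282% were called in those comparisons, and 20.7%, 19.1% and 14.8% had such a p. Cops6 passed in HFD against ND with limma on RPKM, together with Cops7b, and in HFD+MEC1 against ND with DESeq2 and limma on RPKM. The 8 genes of other cullins and of the RING partner RNF7 likewise gave 0 calls with edgeR, with 2, 1 and 0 at an unadjusted p under 0.05, and DESeq2 called Cul7 in HFD+MEC1 against ND.

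Among 8 tested F-box genes that carry other symbols, such as Btrc, Skp2 and Kdm2a, 1 rose in HFD+MEC1 against ND. In a list this short 1 gene makes 12.5%, against 2.15% of all genes, and the list was chosen with earlier results known. In HFD against ND 0 passed with edgeR, DESeq2 or limma, where edgeR called 6.3% of all genes. Of the 8, 1 had an unadjusted p under 0.05 in edgeR in that comparison, against 20.7% of all genes. The gene that rose was Ccnf, which encodes cyclin F, the founding member of the family (chromosome 17, 24222198 to 24251484). It stood at 26.3, 25.2, 24.6 and 25.2 CPM in HFD+MEC1 libraries and at 13.1, 13.1, 22.7 and 14.1 CPM in ND libraries (0.69 ± 0.15, adjusted p = 0.0133). ND replicate 3 lay well above the other ND libraries, and the groups did not overlap. The call was lost without ND replicate 4 (adjusted p = 0.0519) and held in 20 of 21 alternatives. HFD libraries stood at 19.6 to 22.7 CPM.

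Of 20 genes that encode textbook substrates of F-box proteins, 1 fell in HFD+MEC1 against ND with edgeR (5%, against 2.4% of all genes). That list too was chosen with earlier results known, so nothing is read from the share. In HFD against ND 0 passed with edgeR, where 6.3% of all genes were called. Of the 20, 4 had an unadjusted p under 0.05 in that comparison, against 20.7% of all genes. DESeq2 called Ccnd1, Nfkbia and Srebf1 in HFD against ND, and limma called Nfkbia. In HFD+MEC1 against ND, DESeq2 called Ccnd1, Myc and Srebf1, and limma called Srebf1. Myc stood at 21.8 CPM in ND replicate 2 and at 1.11 to 2.92 CPM in the other ND libraries. The gene that fell in edgeR was Srebf1, whose protein is a known target of FBXW7. It stood at 67.4 to 138 CPM in HFD+MEC1 and 255 to 332 CPM in ND, with 169 to 236 CPM in HFD. Against ND the log2 fold change was -1.44 ± 0.19 (edgeR adjusted p = 0.00128), a call that held in 21 of 21 alternatives. Transcript levels say nothing of the ubiquitination of any of these proteins, which was not measured. Over all 71 tested genes of these lists, edgeR called 1 of 71 in HFD against ND (1.41%, against 6.3% of all genes). It called 2 of 71 in HFD+MEC1 against ND (2.82%, against 4.54%) and 0 of 71 in HFD+MEC1 against HFD (0.0282% of all genes). In HFD+MEC1 against HFD, 4 of 71 had an unadjusted p under 0.05 in edgeR, against 14.8% of all genes. DESeq2 called 2 there, Skp1a and Srebf1.

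**Figure D4:**
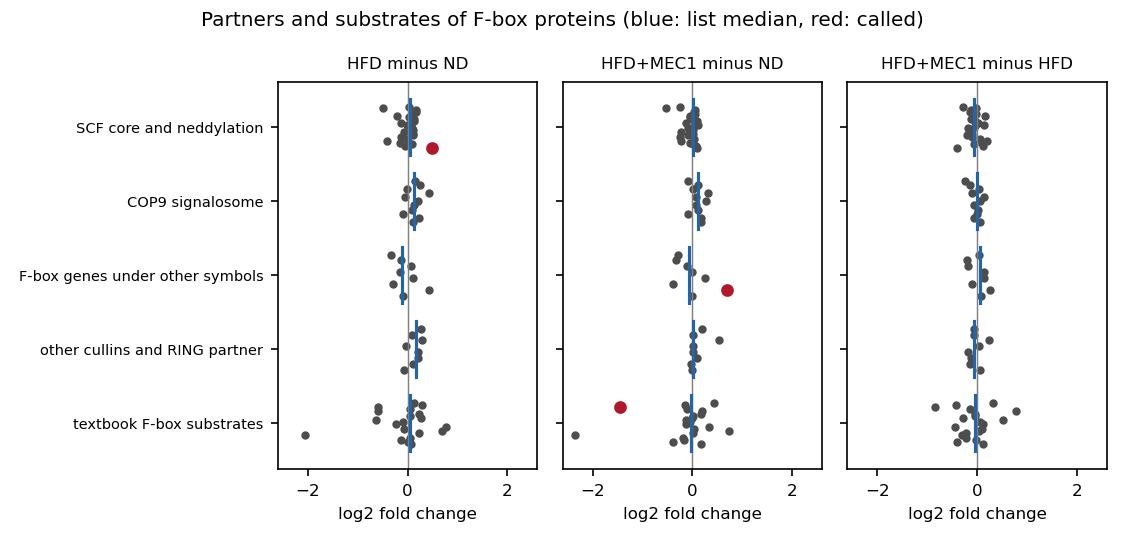
Log2 fold changes of the partner and substrate genes in 3 comparisons; each point is a gene, blue bars are list medians and red points had an adjusted p under 0.05. The red points are Skp1a in HFD minus ND, and Ccnf and Srebf1 in HFD+MEC1 minus ND; list medians lie between -0.11 and 0.16.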

How the data were processed

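Each library came with raw counts by gene symbol, deposited by the authors as whole numbers, and all libraries shared 1 table of RPKM values from the authors, per the file headers. STAR 2.7.10a and mm10 are named in the submitters' processing notes; the counting tool, annotation, strand use and filters are not given in the sources used here. The RPKM table held 12 further columns that match no sample and were not used. Where a gene had between 1 and 20 counts the number was even in 70.1 to 74.7% of cases, so both ends of a read pair may have been counted; the cause was not tested. Replicates differed by more than counting error (chi-square per gene of at least 34.2).

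Genes were filtered with filterByExpr of edgeR 4.0.16 (R 4.3.3) at its minimum count of 10, scaled with TMM, and tested with edgeR's robust quasi-likelihood F-test in 1 model of 12 libraries, with Benjamini-Hochberg adjustment over all 14172 genes, two-sided, at 0.05. SE is the log2 fold change over the square root of F. A count of 3 is 0.0590 to 0.0770 CPM. The model was tested on simulated data. Alternatives used DESeq2 1.42.0, limma 3.58.1 (voom, and log2 of RPKM plus 0.1 or 1), other scaling, no filter, 2 groups, a replicate block, and each library left out.

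Symbols were matched to GENCODE M21: 77 directly and 1, Fbxo18, by synonym. The members and gene lists were chosen with earlier results of these data known. The naming rule took Fbxo21, every called member or list gene, the 8 largest fold changes per comparison and the 10 highest RPKM. It also took members with textbook roles and members nearest the filter. Not every gene it selected is described: Fbxl12, Fbxl17, Fbxl18, Fbxl19, Fbxl21 and Fbxo30 are among those left out. Fbxl6 and Fbxo25 were added after their values were seen because their groups did not overlap, as was Fbxo43. Values of 1 tested member are not reported here and are left out of the figures, while the counts over members include it.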

Additional observations from a re-analysis of the deposited data

Results flagged for a closer look

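Each of 105 groups of 4 libraries was searched for a library set far apart from the other 3, and 7 groups held one (6.67%); chance flags about 1 in 20 groups. Fbxw17 stood at 1.47 CPM in HFD+MEC1 replicate 2, and its 3 companions lay between 0.699 and 0.734 CPM. Fbxo8 was lowest in the same library at 44.9 CPM, against 49.2 to 50.1 CPM. Fbxw9 was highest in HFD+MEC1 replicate 1 at 22.2 CPM, against 15.8 to 16.4 CPM. Fbxo5 was highest in HFD replicate 3 at 1.17 CPM, against 0.353 to 0.482 CPM. Fbxw5 was lowest in HFD replicate 2 at 21.8 CPM, while the rest of HFD spanned 25.6 to 26.1 CPM, and highest in ND replicate 3 at 29.9 CPM, while the rest of ND spanned 23.3 to 23.6 CPM. Fbxl5 was lowest in ND replicate 3 at 22.6 CPM, against 25.7 to 26.1 CPM.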

How the results depend on the processing

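In HFD against ND the count of F-box members called was 2 with library totals against 0 in edgeR, and 0 to 1 with a library left out. In HFD+MEC1 against ND it was 6 with DESeq2 and 1 with only the 2 groups fitted, against 2, and 1 to 4 with a library left out. In HFD+MEC1 against HFD it was 0 with library totals and with RPKM at either pseudocount and 3 with DESeq2, against 1, and 0 to 2 with a library left out. Of the 71 partner and substrate genes, HFD against ND called 1 in edgeR, 7 with library totals, 4 with DESeq2, 2 with limma-voom, 4 with RPKM at either pseudocount, 3 with only the 2 groups and 0 to 3 with a library left out. HFD+MEC1 against ND called 2 of them in edgeR, 4 with library totals, 6 with DESeq2 and 1 to 4 with a library left out, and HFD+MEC1 against HFD called 0 in edgeR, 2 with DESeq2 and 0 to 2 with a library left out. The cause of these shifts was not tested. Library totals moved the share of higher calls over all genes to 79.5% in HFD against ND, against 53.2% with TMM, and to 66.8% in HFD+MEC1 against ND, against 47.2%. Over all genes DESeq2 called 364 in HFD+MEC1 against HFD, where edgeR called 4. Deviations from each gene's group mean correlated between -0.0942 and 0.133 for libraries with the same replicate number, so the numbers were not taken as pairs. With the replicate block the members called were 3 in HFD+MEC1 against ND, where Fbxo31 was added (edgeR adjusted p = 0.00921). In HFD+MEC1 against HFD they were 2. The partner and substrate genes called with the block were 2 in HFD against ND and 4 in HFD+MEC1 against ND. Among members selected by the naming rule 20 values gained a call and 11 lost it, all 11 of Fbxo3 in HFD+MEC1 against ND. Fbxo21 in HFD+MEC1 against HFD, which is not tested, is left out of that count. So are the members added later, among them Fbxo25, which DESeq2 and limma on RPKM called in HFD+MEC1 against ND. The losses of Skp1a and Ccnf stand beside their values. Genes under 1 RPKM have wide intervals, which limits what can be said of them.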
